A study of Mus musculus with 4 samples.

Results

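The regions described here are stretches of chromatin bound by the transcription factor Isl1 that lay between protein-coding genes but not far from them, in the genital tubercle of mouse embryos. A region counted when peaks of both ChIP replicates overlapped by at least 1 bp, when its midpoint (that of the longest overlap) lay outside every RefSeq protein-coding gene, and when that midpoint was more than 1 kb and at most 100 kb from the nearest end of such a gene. Of 6834 shared regions, 1617 met this rule (23.7%, Wilson 95% interval 22.7 to 24.7%). Presence in both lists and position therefore chose the regions, and both are given below as descriptions. The tissue came from wildtype CD1 embryos at stage E14.5, with no treatment or other allele, and ISL1 was precipitated with a rabbit monoclonal antibody in 2 samples. The 2 input DNA samples of the same tissue and age were not analysed here. The labels do not say whether the replicates came from separate pools of embryos, so the spread between them may be technical. The lists hold no measure of gene activity, so the labelled tissue was not checked against markers. Replicate 1 held 8860 peaks and replicate 2 held 10162, of which 2127 and 2501 fell in this distance class.

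Isl1 is a LIM-homeodomain protein, which binds DNA through a homeodomain that contacts the four-letter core TAAT and binds partner proteins through its LIM domains. In the genital tubercle, the outgrowth that forms the penis or clitoris, it is known from the mesenchyme. Sites between genes are often enhancers, short stretches that raise the activity of a gene on the same chromosome, sometimes across other genes, so the nearest gene is a label of place and not a shown target. Peak lists of a transcription factor cannot tell an active enhancer from a bound but inactive site.

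The word intergenic refers to protein-coding genes, and some regions lay at the start of a noncoding gene. For 21 of the 1617 regions (1.30%) the span overlapped the start of a long noncoding RNA (lncRNA) gene, here the 300 bases from 250 before to 50 after the annotated start in a RefSeq table of build GRCm38.p6, whose coordinates are those of mm10. That table gave a strand for only 17492 of 21887 protein-coding genes. Starts of lncRNA genes may be missing from it too, so 21 may be too few. The share of eligible sequence in such start windows is not given here, so 1.30% cannot be called many or few. These 21 are the regions whose bases could be read, and 8 of them are printed 5′ to 3′ on the strand of the noncoding gene, cut to the bases inside the region. Capitals mark TAAT or its reverse complement ATTA. The first 4 hold CTAATG, which resembles the site known for ISL1, the next 2 lie near the developmental regulators Msx1 and Foxq1, and the last 2 had the highest lower scores among stretches of at least 100 bases with no TAAT.
Gm41159: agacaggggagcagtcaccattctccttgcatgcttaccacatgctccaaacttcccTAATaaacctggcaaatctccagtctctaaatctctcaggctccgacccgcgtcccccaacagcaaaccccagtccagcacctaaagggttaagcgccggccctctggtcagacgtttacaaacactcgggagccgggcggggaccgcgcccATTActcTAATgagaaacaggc
Gm30252: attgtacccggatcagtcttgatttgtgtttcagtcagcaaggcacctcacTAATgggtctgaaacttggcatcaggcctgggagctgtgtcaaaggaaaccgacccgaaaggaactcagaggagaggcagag
Gm41252: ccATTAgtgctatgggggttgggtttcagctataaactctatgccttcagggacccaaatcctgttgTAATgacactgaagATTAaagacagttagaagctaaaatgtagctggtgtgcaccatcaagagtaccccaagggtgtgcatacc
Cdr1os: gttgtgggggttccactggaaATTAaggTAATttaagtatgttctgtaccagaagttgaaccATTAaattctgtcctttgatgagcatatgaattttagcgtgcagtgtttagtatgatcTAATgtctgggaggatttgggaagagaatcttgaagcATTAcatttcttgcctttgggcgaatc
Gm20052: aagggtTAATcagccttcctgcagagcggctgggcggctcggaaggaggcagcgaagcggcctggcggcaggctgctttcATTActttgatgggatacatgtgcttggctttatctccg
Gm11377: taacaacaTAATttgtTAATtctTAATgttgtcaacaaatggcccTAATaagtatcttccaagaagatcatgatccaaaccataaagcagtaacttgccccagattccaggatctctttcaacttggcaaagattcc
Gm51458: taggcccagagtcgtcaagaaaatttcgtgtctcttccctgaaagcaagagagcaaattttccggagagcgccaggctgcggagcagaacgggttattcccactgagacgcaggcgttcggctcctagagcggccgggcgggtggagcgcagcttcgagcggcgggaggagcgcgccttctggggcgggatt
2410006H16Rik: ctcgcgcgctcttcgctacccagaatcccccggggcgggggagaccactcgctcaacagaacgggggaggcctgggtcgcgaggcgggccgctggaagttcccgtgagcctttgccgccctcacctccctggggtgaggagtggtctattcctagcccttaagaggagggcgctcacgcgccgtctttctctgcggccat

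Gm41159 was read at chr14:55823609-55823839 (minus strand), 1.09 kb from Nfatc4, which encodes a calcium-regulated transcription factor, with scores of 351 in replicate 1 and 265 in replicate 2. Gm30252 was read at chr16:44615979-44616111 (plus strand), 57.1 kb from Boc, a hedgehog co-receptor gene, with scores of 109 and 240. Gm41252 was read at chr14:120578278-120578428 (plus strand), 71.1 kb from Rap2a, a small GTPase gene, with scores of 102 and 88. Cdr1os was read at chrX:61116128-61116311 (plus strand), 67.1 kb from Cdr1, with scores of 102 and 51. The order of the replicates thus differed between these sites, with replicate 2 the higher at Gm30252 alone.

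Gm20052 was read at chr5:37893703-37893821 (plus strand), 69.3 kb from Msx1, with scores of 181 and 166. Gm11377 was read at chr13:31564379-31564515 (plus strand), 3.38 kb from the forkhead gene Foxq1, with scores of 74 and 70 and 4 copies of TAAT in 137 bases. Gm51458 was read at chr7:127636972-127637163 (plus strand), 21.3 kb from Zfp629, a zinc finger gene, with scores of 510 and 425, the highest lower score of the 21. The stretch at 2410006H16Rik was chr11:62602689-62602888 (plus strand), 2.09 kb from Lrrc75a, with scores of 365 and 293. The stretches of Gm51458 and 2410006H16Rik were 62.0% and 67.5% G or C with 19 CG pairs each, against 35.8% and no CG pair at Gm11377.

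For 18 of the regions the overlap with such a window was at least 100 bases, and 1 whole 300-base window for each, the one with the longest overlap where a gene had more than 1, was searched on both strands. CTAATG was in 4 of 18 (22.2%), against 7.33% of 32544 distinct windows at the starts of all genes in the table and 9.02% of those of lncRNA genes. TAAT, the core that every other motif searched here contains, was in 15 of 18 (83.3%), against 57.9% and 69.5%. In 13 of those 15 windows a TAAT lay within the overlap with the region, and CTAATG did so in all 4 of its windows. CTAATT was in 2 of 18 (11.1%, against 8.25% and 10.04%) and TAATTA in none (against 5.29% and 6.69%). In the 530 windows overlapped as far by Isl1 regions within 1 kb of a coding gene end, CTAATG was in 3.58% and TAAT in 44.0%. Base composition differed along with these shares, with a median of 49.5% G or C in the 18 windows, 53.0% in all windows, 48.3% in lncRNA windows and 61.3% in the windows at coding gene ends. Its part in the shares was not tested, and 18 windows fix a share only loosely.

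Most regions carried weak to middling scores, the whole-number peak score of the authors, whose formula is not given in the sources used here. In replicate 1 the regions ranged from 20 to 1637 around a median of 95, with quartiles at 61 and 157. In replicate 2 they ranged from 22 to 1273 around a median of 118, with quartiles at 81 and 196. Replicate 2 had the higher score in 997 of 1617 regions (61.7%), and 1272 (78.7%) had scores within 2-fold of each other. Whether a score means the same in both libraries is not stated. Across the regions, which share their 2 libraries, the scores had a Spearman correlation of 0.657. Both scores were at least 100 in 651 regions (40.3%), at least 300 in 107 (6.62%), at least 500 in 31 (1.92%) and at least 1000 in 3 (0.186%). The joined span of a region had a median of 254 bp (quartiles 190 and 342 bp), and 60 regions joined more than 1 peak of a list. Wider regions tended to score higher, with a Spearman correlation of 0.403 between span and the lower of the scores.

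**Figure D1:**
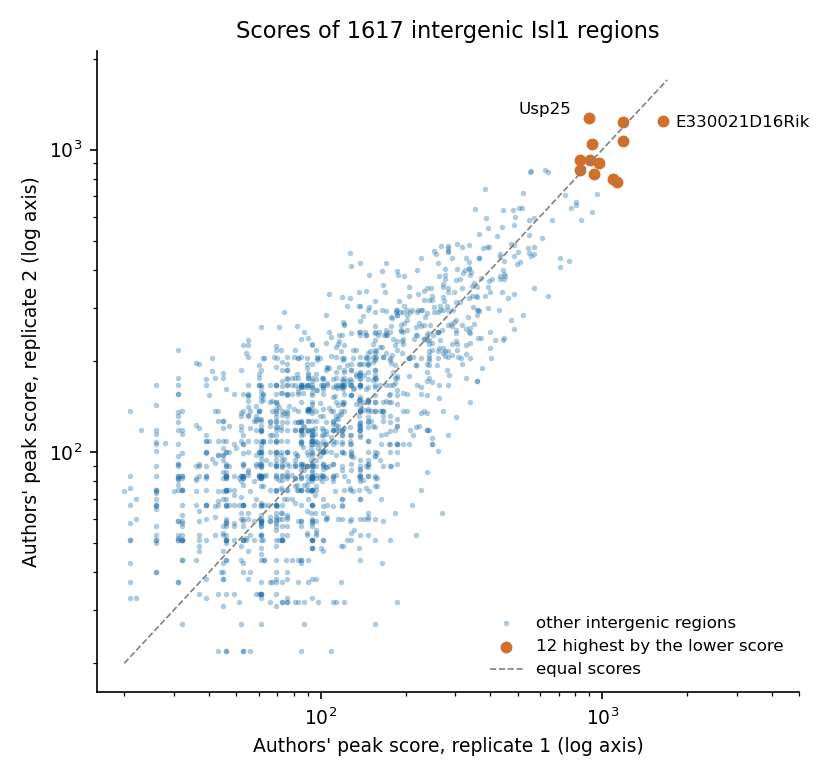
Authors' peak score in replicate 1 (x, log axis) against replicate 2 (y, log axis) for each of the 1617 regions, with the 12 of highest lower score in orange and a dashed line of equal scores. The cloud is broad below a score of 100 and narrows upward, and the regions nearest E330021D16Rik and Usp25 lie on opposite sides of the line.

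The scores resembled those of the other regions away from gene ends. Inside coding genes (2520 regions) the median scores were 101.5 and 118, beyond 100 kb (1765 regions) they were 93 and 118, and within 1 kb of a gene end (932 regions) they were 253 and 239. Scores of at least 300 in both lists were found in 6.62% of the regions described here, 8.45% inside genes, 4.82% beyond 100 kb and 36.1% at gene ends. Of the peaks in this distance class, 77.4% in replicate 1 (75.6 to 79.2%) and 65.8% in replicate 2 (63.9 to 67.6%) overlapped a peak of the other list. The shares were similar inside genes (77.2% and 66.6%) and beyond 100 kb (80.3% and 66.2%). At gene ends they were 80.4% and 84.5%. The 480 peaks of the replicate 1 list that overlapped none of the other had a median score of 56.5 (highest 206), and the 856 such peaks of replicate 2 had 67 (highest 283). The classes were defined on the peaks themselves, so these differences are described and not tested.

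The strongest intergenic regions stood beside genes of varied kinds, among them Tbx4, Sim1, Foxo3 and Tle3, which encode transcriptional regulators. The highest lower score belonged to chr6:136468482-136468867 (1637 in replicate 1, 1244 in replicate 2), which sat almost midway between E330021D16Rik (48.8 kb) and Atf7ip, a gene for a chromatin silencing factor (50.1 kb). Next came chr11:85963381-85963969 (1182 and 1231), 47.6 kb past the far end of Tbx4, the T-box gene of hindlimb and genital outgrowth, with the helicase gene Brip1 94.5 kb away on the other side. A region at chr14:23057514-23057968 (1182 and 1068) lay 1.66 kb from Lrmda and 235 kb from the potassium channel gene Kcnma1. Both replicates put all 3 above a score of 1000.

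The region at chr11:94989794-94990065 (921 and 1045) lay 1.28 kb before the start of Ppp1r9b, which encodes the actin-binding protein spinophilin. The one at chr5:22675173-22675760 (976 and 906) was 70.6 kb from Lhfpl3, and the one at chr11:76647014-76647403 (904 and 921) lay between Abr, a regulator of small GTPases (23.9 kb), and Bhlha9, a basic helix-loop-helix gene of the limb bud (25.3 kb). At chr16:77209830-77210531 (897 and 1273) the ubiquitin protease gene Usp25 was 93.5 kb away and Cxadr, on the other side, 1091 kb. Replicate 2 was the higher at 3 of these 4 regions.

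Sim1, a basic helix-loop-helix gene, had chr10:51016540-51016940 (832 and 921) 27.6 kb away, and the forkhead gene Foxo3 had chr10:42277872-42278239 (933 and 830) 1.36 kb before its start. The aminopeptidase gene Aopep had chr13:62949373-62949982 (830 and 854) 15.2 kb away. Tle3, the gene of a Groucho-type corepressor, had chr9:61368551-61368825 (1091 and 800) 3.65 kb before its start. The last of the 12, chr19:26845314-26845573 (1124 and 782), lay 40.5 kb from Gm815 and 67.1 kb from Smarca2, which encodes the Brahma remodelling ATPase. In 5 of the 12, those nearest E330021D16Rik, Lrmda, Abr, Tle3 and Gm815, the midpoint fell inside an annotated lncRNA gene. Over all 1617 regions this held for 279 (17.3%), and 12 regions fix a share only loosely.

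The distance to the nearest gene end had a median of 31.0 kb (quartiles 12.1 and 59.2 kb). Per length of sequence that met the position rule (eligible sequence, 842 Mb), there were 1.92 regions per Mb (Poisson 95% interval 1.83 to 2.02, counting error only). Within this class, density was lowest in the bins up to 20 kb: 1.56 per Mb (1.34 to 1.81) at 1 to 5 kb, 1.60 (1.37 to 1.86) at 5 to 10 kb and 1.59 (1.39 to 1.81) at 10 to 20 kb. It was 2.02 per Mb (1.85 to 2.21) at 20 to 50 kb and 2.36 (2.17 to 2.57) at 50 to 100 kb. All peaks of replicate 1 gave 2.09 per Mb at 1 to 5 kb and 3.14 at 50 to 100 kb, and those of replicate 2 gave 2.29 and 3.63. Each list by itself was thus densest in the farthest of these bins. The bins leave out the peaks within 1 kb of a gene end, 1170 in replicate 1 and 1118 in replicate 2.

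Scores ran the other way. From 1 to 5 kb the median scores were 110 and 137 and 10.6% of regions had both scores at 300 or more, whereas from 50 to 100 kb the medians were 93 and 117 and the share was 4.56%. Across all 1617 regions the Spearman correlation of distance was weak, -0.07 with the score of replicate 1 and -0.07 with that of replicate 2. Around the limits, the regions just over 1 kb lay by Arhgap10 (1005 bp, scores 109 and 137), Mfap3l (1012 bp, 398 and 249) and Irf2bp1 (1015 bp, 447 and 388), and those just under it by Hes1 (952 bp, 85 and 51), Ddit4 (968 bp, 416 and 352) and Atp6v0d2 (972 bp, 76 and 91). At the outer limit Rfx3 (99.5 kb, 26 and 101), Castor2 (99.6 kb, 62 and 154) and Stt3b (99.98 kb, 46 and 83) were just inside, and Megf9 (100.2 kb, 81 and 49), Csnk1g3 (100.3 kb, 154 and 132) and Bmp4 (100.4 kb, 119 and 118) just outside.

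**Figure D2:**
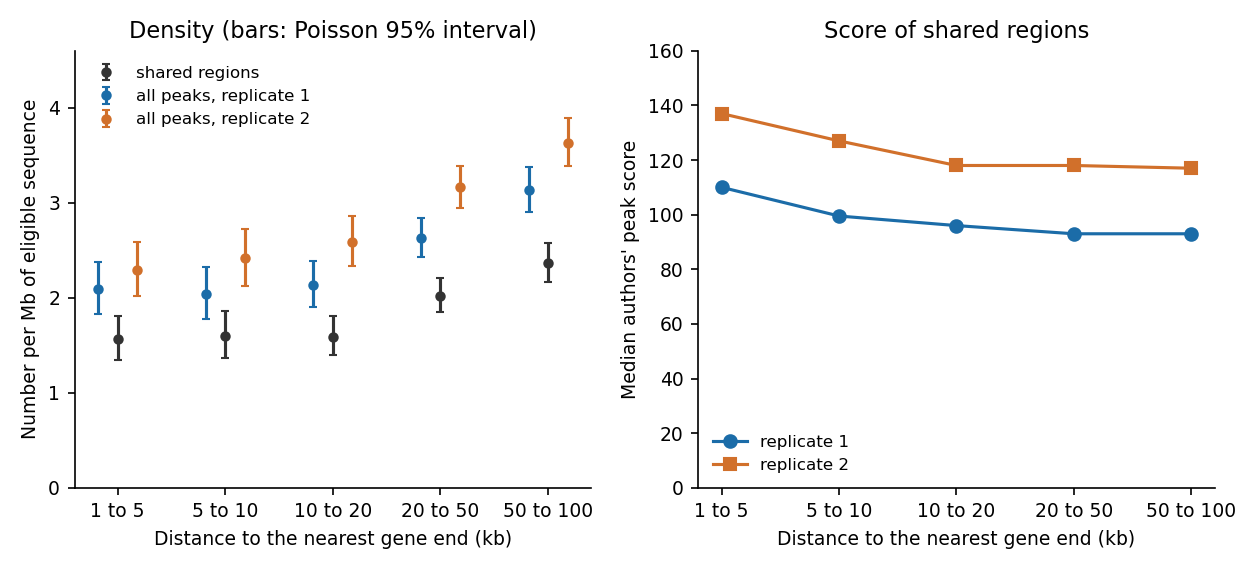
Left, number per Mb of eligible sequence (y) in 5 bins of distance to the nearest protein-coding gene end (x, kb) for shared regions and for all peaks of each replicate, with Poisson 95% intervals. Right, median score of the shared regions in each replicate. Density rises from 1.56 to 2.36 per Mb with distance, while the median scores fall from 110 to 93 and from 137 to 117.

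Regions were as dense beyond the start of genes as beyond their far end. The promoter table gave a strand for 17492 of 21887 protein-coding genes. With those, 657 regions had the start of a gene as their nearest end (1.86 per Mb, 1.72 to 2.005) and 567 had the far end (1.85 per Mb, 1.70 to 2.01). Within 5 kb, 78 regions were nearest to a start and 55 to a far end. The other 393 regions were nearest to a gene without a strand in the table (2.17 per Mb).

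Long noncoding RNA genes held 279 of the midpoints (17.3%, 15.5 to 19.2%), while they covered 11.9% of the eligible sequence. The density inside them was 2.78 per Mb (2.46 to 3.12) and outside them 1.81 (1.71 to 1.90). The median scores were 104 and 127 inside and 93 and 118 outside. Examples are Gm20052 by Msx1, Gm46948 by Col1a2, A930035F09Rik by Nrp1 and 8030451A03Rik by Tnc, each of which held 2 regions. Whether any of these RNAs is made in the tubercle was not measured.

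Chromosomes differed. The X chromosome had 31 regions in 65.3 Mb of eligible sequence (0.475 per Mb, 0.322 to 0.674) and Y had none in 40.7 Mb. Among autosomes the density ran from 1.21 per Mb (0.940 to 1.53) on chromosome 7 to 3.39 (2.71 to 4.19) on chromosome 18. Each list held 41 peaks of the class on X, shared ones included. Eligible sequence was not corrected for assembly gaps, for repeats in which short reads cannot be placed or for the numbers of X and Y in the embryos used, and their part in these densities was not tested.

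**Figure D3:**
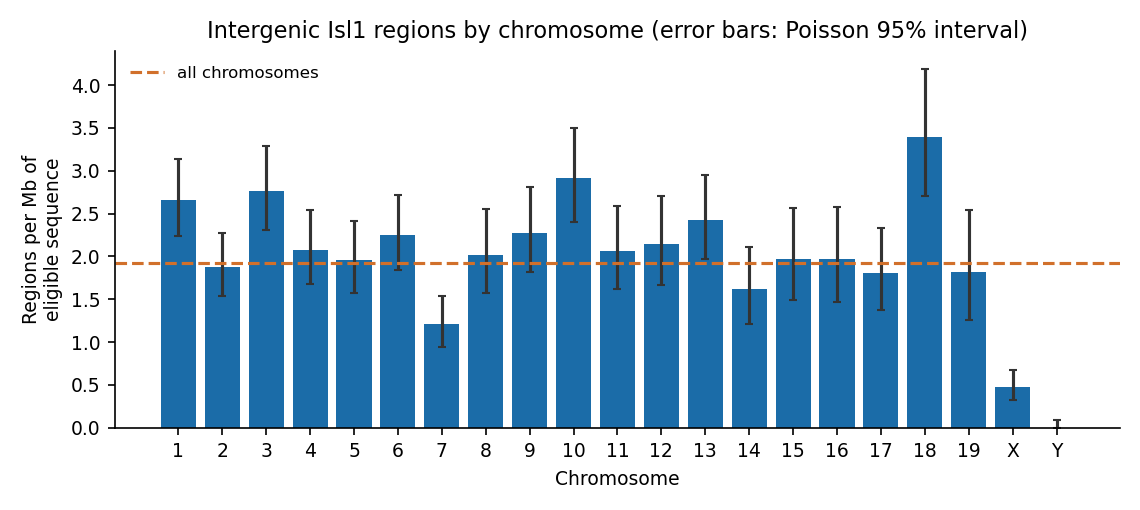
Intergenic regions per Mb of eligible sequence (y) on each chromosome (x), with Poisson 95% intervals and a dashed line at the value over all chromosomes, 1.92. X stands at 0.475, under every autosome, and Y at 0.

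The regions gathered at some genes. They had 1185 of 21887 protein-coding genes as nearest gene (5.41%, or 6.04% of the 19623 with eligible sequence), of which 894 had 1 region and 291 had 2 or more (1.33% of all genes). Taken one list at a time, with shared and unshared peaks together, the peaks of the class were nearest to 6.7% of the genes in replicate 1 and to 7.34% in replicate 2. Peak counts given for a list below are of this kind. Counts of at least 3 were found at 96 genes (0.439%). Within 50 kb of another intergenic region lay 639 of the 1617 (39.5%, 37.2 to 41.9%), in 262 groups of up to 6. Regions that nearly touch count separately here, such as chr13:116317934-116318109 and chr13:116318166-116318729 at Isl1. Counts per gene and the share with a neighbour may therefore exceed those of separate binding sites. Grouped regions had median scores of 93 and 126 and single ones 96 and 118. Of the 1185 genes, 363 (30.6%, 28.1 to 33.3%) also had a shared region inside them or within 1 kb of an end, against 10.6% of all protein-coding genes. The other 822 had their Isl1 regions outside the gene alone.

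Among the 4 groups of 6 regions, the one with the shortest span lay beyond the start of Rnd3, the gene of an atypical small GTPase that loosens the actin cytoskeleton. It held 6 regions in 32.2 kb of chromosome 2, between 57.3 and 89.5 kb from the gene. The strongest was chr2:51219706-51220013 with 243 in replicate 1 and 235 in replicate 2, and the others ran from 42 to 158 and from 77 to 176. The gene on the other side, the taste receptor gene Tas2r134, was at least 389 kb away. The replicate 1 list held 7 peaks there and the replicate 2 list 6. The count at Rnd3 fell to 1 with both scores at 100 or more, and to 0 with an outer limit of 50 kb or when genes of every type, noncoding ones included, set the positions.

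The other groups of 6 lay on chromosomes 13 and 5. The one between Fbp1 and Aopep on chromosome 13 spanned 50.8 kb and contained the region with scores of 830 and 854 named above, another at chr13:62930163-62930481 (398 and 337) and 1 nearest Fbp1 with 559 and 445. On the same chromosome 6 regions between Ercc6l2 and Hsd17b3, an enzyme of testosterone synthesis, spanned 91.7 kb with scores of 73 to 176 and 51 to 196. Between the homeobox gene Msx1 and Stx18 on chromosome 5, 6 regions spanned 118 kb, and the 3 nearest Msx1 were chr5:37893703-37894017 (181 and 166), chr5:37895590-37895991 (93 and 83) and chr5:37917890-37918280 (137 and 305). Both lists held 6 peaks in each of these 3 groups.

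Col1a2, which encodes a chain of type I collagen, had 5 regions within 32.3 kb before its start. They were chr6:4457524-4457892 (128 and 101), chr6:4462751-4463095 (107 and 249), chr6:4484248-4484437 (51 and 32), chr6:4489438-4489815 (203 and 283) and chr6:4489890-4490152 (177 and 90). All lay between 15.6 and 47.9 kb from the gene, and no shared region lay inside it or within 1 kb of its ends. The length of its eligible flanks, 128 kb, corresponds to 0.245 regions at the mean density. Its count was 2 when genes of every type set the positions and 3 with both scores at 100 or more.

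Other genes with 5 regions were Ube2u, Isl1, Gm38821, Frem1, Apcdd1, Med13l, Slc27a6, Adamts20, Cabcoco1 and Ercc6l2, with flanks that correspond to 0.170 to 0.380 regions at the mean density. All were picked for their counts. The replicate 2 list held 8 peaks at each of Adamts20 and Cabcoco1. When genes of every type set the positions, Isl1 had 5, Slc27a6 and Cabcoco1 3, Frem1, Apcdd1 and Med13l 2, and the other 4 none. With both scores at 100 or more these 10 genes had 1 to 4, and with an outer limit of 50 kb 0 to 4. Frem1, which encodes a matrix protein of the basement membrane zone, had its highest lower score at chr4:83108026-83108723 (277 and 216). Xkr9 had 4 regions, of which chr1:13715405-13715804 (559 and 847) and chr1:13787831-13788086 (777 and 643) were the strongest. Some groups of 4 were denser than all of these, and were singled out after their values were seen: 4 regions near Gm11232 on chromosome 4 spanned 1.51 kb (scores of 26 to 76 and 22 to 100), and those near Cox10, Gm38821 and Pls3 spanned 11.9, 16.6 and 16.7 kb. Those near Pls3 all lay in the noncoding gene 4933407K13Rik, at 35.1, 40.9, 45.8 and 51.8 kb, with widths of 138 to 162 bp. Whether these groups lie in repeats, where short reads are hard to place, was not tested.

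**Figure D4:**
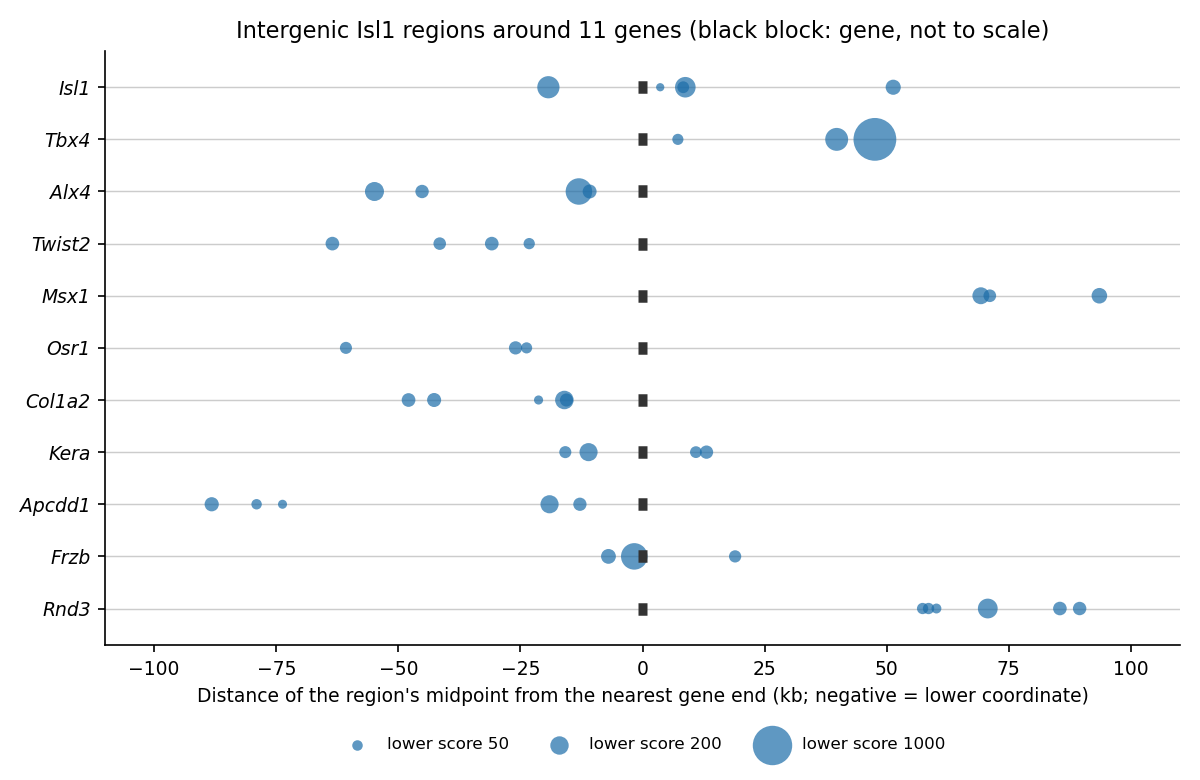
Midpoints of the intergenic regions nearest to 11 genes (rows), by distance from the nearest gene end (x, kb, negative towards lower coordinates), with the area of a dot growing with the lower of the scores. The largest dot, 47.6 kb from Tbx4, has a lower score of 1182. Isl1, Kera and Frzb have regions on both sides, and each of the other genes on a single side.

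Genes were then read by role, in 28 lists holding 625 genes, of which 132 (21.1%) had at least 1 intergenic region. The lists were chosen with earlier results of these data known, so their shares are descriptions. The share over all protein-coding genes was 5.41%, but list genes often have long flanks, so the density per Mb of eligible flank is given too, to be read beside the 1.92 per Mb over all eligible sequence. Intervals of these densities cover counting error alone and take regions as independent, although regions of a gene come in groups. The counts of list genes depended on 2 settings most: 59 of 625 had a region when genes of every type set the positions ("every gene type" below), and 67 with both scores at 100 or more ("scores of 100"). Scores of 100 also cut the number of all protein-coding genes with a region, from 1185 to 559 of 21887. With every gene type the nearest genes numbered 1779, noncoding ones included. List counts at these 2 settings are therefore not to be read against 5.41%.

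Transcription factors of the tubercle and its mesenchyme had the highest share, 20 of 36 genes (55.6%), with 42 regions at 10.2 per Mb (7.38 to 13.8). The count was 9 genes with every gene type and 12 with scores of 100. The median scores of these regions were 104 and 116, close to those of all intergenic regions. Isl1 itself had 5, at 3.62 to 51.3 kb, and the strongest flanked the gene on both sides, chr13:116278797-116279188 (302 and 371) and chr13:116318166-116318729 (327 and 256). The other 3 were chr13:116313188-116313370 (22 and 33), chr13:116317934-116318109 (69 and 100) and chr13:116360860-116361161 (128 and 171).

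Alx4, a paired-type homeobox gene of mesenchyme, had 4 on one side: chr2:93629255-93629544 (707 and 439, 13.03 kb away), chr2:93587325-93587670 (282 and 215), chr2:93631480-93631734 (105 and 166) and chr2:93597231-93597378 (95 and 106). Twist2, a basic helix-loop-helix repressor gene, had 4 between 23.2 and 63.5 kb before its start, of nearly even strength (61 to 119 and 82 to 100). Tbx4 had 3, the strongest named above, then chr11:85955689-85955995 (463 and 323) and chr11:85923272-85923408 (59 and 98), and the replicate 1 list held 5 peaks. Osr1, a zinc finger gene, had 3 with scores of 73 to 93 and 59 to 118. The homeobox gene Prrx1 had chr1:163190830-163191317 (342 and 393) 53.9 kb away and a weaker one. Twist1 had 2 adjacent regions 19.5 and 20.4 kb away (113 and 131, 91 and 139), where the replicate 2 list held 4 peaks. Tbx5, Msx2, Dlx5 and Osr2 were among those with 1 region. The replicate 2 list held 4 peaks at Msx2 and 3 at Osr2, and each list had 2 at Tbx5.

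In the hedgehog pathway, which carries the signal of the urethral epithelium to the mesenchyme, 3 of 18 genes had regions (16.7%), with 6 regions at 4.80 per Mb (1.76 to 10.4). A single gene was left with every gene type, with scores of 100 or with an outer limit of 50 kb. The co-receptor gene Boc had 3, chr16:44632951-44633199 (292 and 210), chr16:44632633-44632772 (127 and 75) and the one at Gm30252 printed above. The effector gene Gli2 had 2, at 34.5 kb (156 and 83) and 89.6 kb (93 and 75). Cdon, another co-receptor gene, had 1 at 61.6 kb (138 and 60), and the replicate 2 list held 2 peaks. None of the ligands, Ptch1, Smo or the other Gli genes was the nearest gene of such a region.

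Among Wnt ligands and receptors, 5 of 31 genes had 1 region each (16.1%, 3.30 per Mb, 1.07 to 7.71), against 2 genes with every gene type, 3 with scores of 100 or an outer limit of 50 kb, and 10 where a region counted for the nearest gene on each side. For the ligands these were Wnt5a (302 and 130, 31.1 kb), Wnt11 (120 and 202, 50.4 kb) and Wnt7a (76 and 166, 13.7 kb), and for the Frizzled receptors Fzd10 (277 and 386, 63.4 kb) and Fzd8 (46 and 82, 1.68 kb). Wnt5a had 2 peaks in the replicate 1 list and Fzd10 had 2 in the replicate 2 list. Wnt effectors, inhibitors and feedback genes had regions at 8 of 32 genes (25%), 16 regions at 6.96 per Mb (3.98 to 11.3).

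Apcdd1, a membrane inhibitor, had 5 between 12.8 and 88.2 kb on one side, the strongest at chr18:62903123-62903816 (194 and 213). Frzb, a secreted Wnt antagonist, had 3, with 440 and 556 at chr2:80409949-80410431, 1.70 kb beyond its far end. Dkk2, an antagonist that acts on the co-receptor, had chr3:132065225-132065606 (316 and 196) and a weaker one. Sfrp2 had 2 of 32 to 46 in replicate 1 and 44 to 109 in replicate 2. The feedback gene Nkd1 had chr8:88604398-88604772 (394 and 352) 9.67 kb away. The count at Apcdd1 was 3 with reciprocal overlap of at least 50% or both scores at 50 or more, and 2 with scores of 100, with every gene type or with an outer limit of 50 kb.

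Bmp genes had regions at 7 of 30 (23.3%), 9 regions at 3.63 per Mb (1.66 to 6.89), and the replicate 2 list held peaks at 11 genes. Only 3 genes were left with every gene type, and 3 with scores of 100. The ligand gene Bmp4 had 3 weak ones, at 19.6 kb (36 and 82), 46.0 kb (32 and 51) and 87.6 kb (85 and 57), and the replicate 1 list held 5 peaks. Bmp5 had a strong one, chr9:75936643-75937350 (349 and 362), 36.8 kb away, with 2 peaks in the replicate 1 list. Bmp7 (162 and 137) and Bmp2 (70 and 121) had 1 each, where the replicate 1 list held 3 and 2. Bambi, a pseudoreceptor gene, had 1 at 45.1 kb (184 and 169).

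Fgf genes had regions at 8 of 27 (29.6%), 10 regions at 4.92 per Mb (2.36 to 9.05), with 4 genes left at scores of 100 and 5 with an inner limit of 5 kb. Among ligands, Fgf9 (245 and 263, 37.9 kb), Fgf18 (186 and 122, 12.03 kb) and Fgf10 (80 and 139, 1.44 kb) had 1 each, and each list had 2 peaks at Fgf10. Among genes that respond to Fgf, Etv5 had chr16:22341287-22341697 (523 and 716) 39.8 kb away and a weaker one of 76 and 32. The feedback inhibitor gene Spry2 had 2, with scores of 31 to 53 and 51 to 91.

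Tgf-beta and activin genes had regions at 3 of 21 (14.3%), with 3 at Smad2, a signal transducer (60 to 109 and 83 to 156), and each list held peaks at 6 genes. Notch genes had 1 of 20 (5.00%), at Hes1 (28.9 kb), and retinoic acid genes 1 of 18 (5.56%), at the degrading enzyme gene Cyp26b1 (94.2 kb). The replicate 2 peaks gave 2 genes in each of the Notch and retinoic acid lists. Eph and ephrin genes had 5 of 21 (23.8%), where Efna5 had 3 with the strongest at chr17:62883251-62883422 (211 and 294), and 5 peaks in the replicate 2 list, and Epha4 had 2. Guidance genes had 8 of 27 (29.6%), led in strength by the receptor gene Nrp1 with chr8:128328927-128329290 (548 and 583). Of the guidance genes 5 were left with both scores at 50 or more or with every gene type, and 3 with scores of 100. The Eph list had 3 genes with every gene type, 3 with scores of 100 and 2 with an outer limit of 50 kb.

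The sex steroid list, which also takes in other nuclear receptor and cofactor genes, had regions at 8 of 17 (47.1%), 9 regions at 6.58 per Mb (3.01 to 12.5). Srd5a2, which makes dihydrotestosterone from testosterone, had 2 at 7.75 kb (76 and 40) and 30.3 kb (76 and 70). The glucocorticoid receptor gene Nr3c1 had 1 at 63.0 kb, its chaperone gene Fkbp5 1 at 4.54 kb and Nr2f2 1 at 67.0 kb (213 and 206), and the replicate 1 list held 2 peaks at Nr3c1. The estrogen receptor gene Esr1 (61 and 117) and Hsd17b3 (176 and 51) had 1 region each. This list fell to 2 genes with every gene type, and to 4 with scores of 100 or with an outer limit of 50 kb. The 4 with scores of 100 were Nr3c1, Fkbp5, Nr2f2 and the coactivator gene Ncoa2, none of them particular to sex steroids.

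Matrix genes held many. Collagen genes had regions at 10 of 22 (45.5%), 17 regions at 10.8 per Mb (6.30 to 17.3), of which 5 were those of Col1a2, and 5 genes were left with every gene type or with scores of 100. Col8a1 had 2 (120 and 171, 137 and 338), and Col6a1 (147 and 83, 70 and 144) and Col12a1 (138 and 139, 49 and 106) also had 2. Other matrix genes had 10 of 35 (28.6%), 18 regions at 8.10 per Mb (4.80 to 12.8), with 4 genes left under every gene type. Kera, which encodes the proteoglycan keratocan and stands in a row of related genes, had 4 (69 to 193 and 94 to 251), split between its sides. Postn, the periostin gene, had 3 with the strongest at 22.4 kb (177 and 280). Tnc, the tenascin C gene, had chr4:64100399-64100792 (348 and 302) and another, and Fn1, the fibronectin gene, had 2 of 76 and 156 and of 242 and 204.

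Forkhead genes had regions at 6 of 18 (33.3%, 4.19 per Mb, 1.81 to 8.26), among them Foxf2 with 2 (72 and 109, 119 and 118). Sox genes had 4 of 17 (23.5%, 2.49 per Mb), LIM and TALE homeodomain partners 6 of 26 (23.1%, 3.64 per Mb, with 3 regions at Meis1) and the posterior Hox list, which includes Evx genes, 3 of 18 (16.7%, 9.40 per Mb, 2.56 to 24.1). With every gene type, and likewise with scores of 100, the counts were 3 forkhead, 0 Sox, 1 LIM or TALE gene and 1 gene of the Hox list. With scores of 100 the latter was Evx1, so no Hox gene proper was left. The Hox list had only 0.425 Mb of eligible flank, and its 4 regions lay by Evx2 (42 and 53, 49 and 34), Evx1 (282 and 349, 99.1 kb) and Hoxc11 (104 and 60, 3.35 kb). Of these, Hoxc11 alone is a Hox gene. The replicate 1 list held 2 peaks at Evx1.

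Lists for other cell types rested on few regions. Cartilage and bone genes had 2 of 16 (12.5%, 2.05 per Mb), endothelial genes 3 of 18 (16.7%, 2.48 per Mb), skeletal muscle genes 1 of 18 (5.56%, 1.52 per Mb) and epithelial and urethral plate genes 1 of 24 (4.17%, 0.942 per Mb, Krt8 at 6.71 kb). Blood and immune genes had 2 of 18 (11.1%) but 6.596 regions per Mb (1.80 to 16.9), since 3 of their 4 regions lay at Ptprc, which encodes the leukocyte antigen CD45. The replicate 1 list held peaks at 3 blood genes and at 2 muscle genes, and the replicate 2 list at 3 bone genes and 3 muscle genes. Genes known as Isl1 targets in motor and sensory neurons had 4 of 20 (20.0%, 3.34 per Mb) and those of heart and islet 4 of 24 (16.7%, 1.80 per Mb). In each of these 7 lists a count moved by over 1.5 times under every gene type or scores of 100, to between 0 and 2 genes. Where a region counted for the nearest gene on each side, the epithelial list had 4 genes, the muscle list 2 and the neuron list 6. The bone, endothelial, blood, and heart and islet lists kept their counts. Hepatocyte genes had none of 18 and ribosomal protein genes none of 25, on flanks of 0.620 and 0.180 Mb that correspond to 1.19 and 0.346 regions at the mean density, so a count of 0 says little. The replicate 2 list held a peak at 1 hepatocyte gene. Cell cycle genes had 3 of 26 (11.5%, 5.87 per Mb, 1.91 to 13.7), with 2 regions each close to Ccnd1 (302 and 274 at 1.90 kb, 223 and 122 at 3.69 kb) and Cdkn1b (181 and 184 at 3.07 kb, 165 and 223 at 3.20 kb), genes that drive and restrain entry into the cycle.

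**Figure D5:**
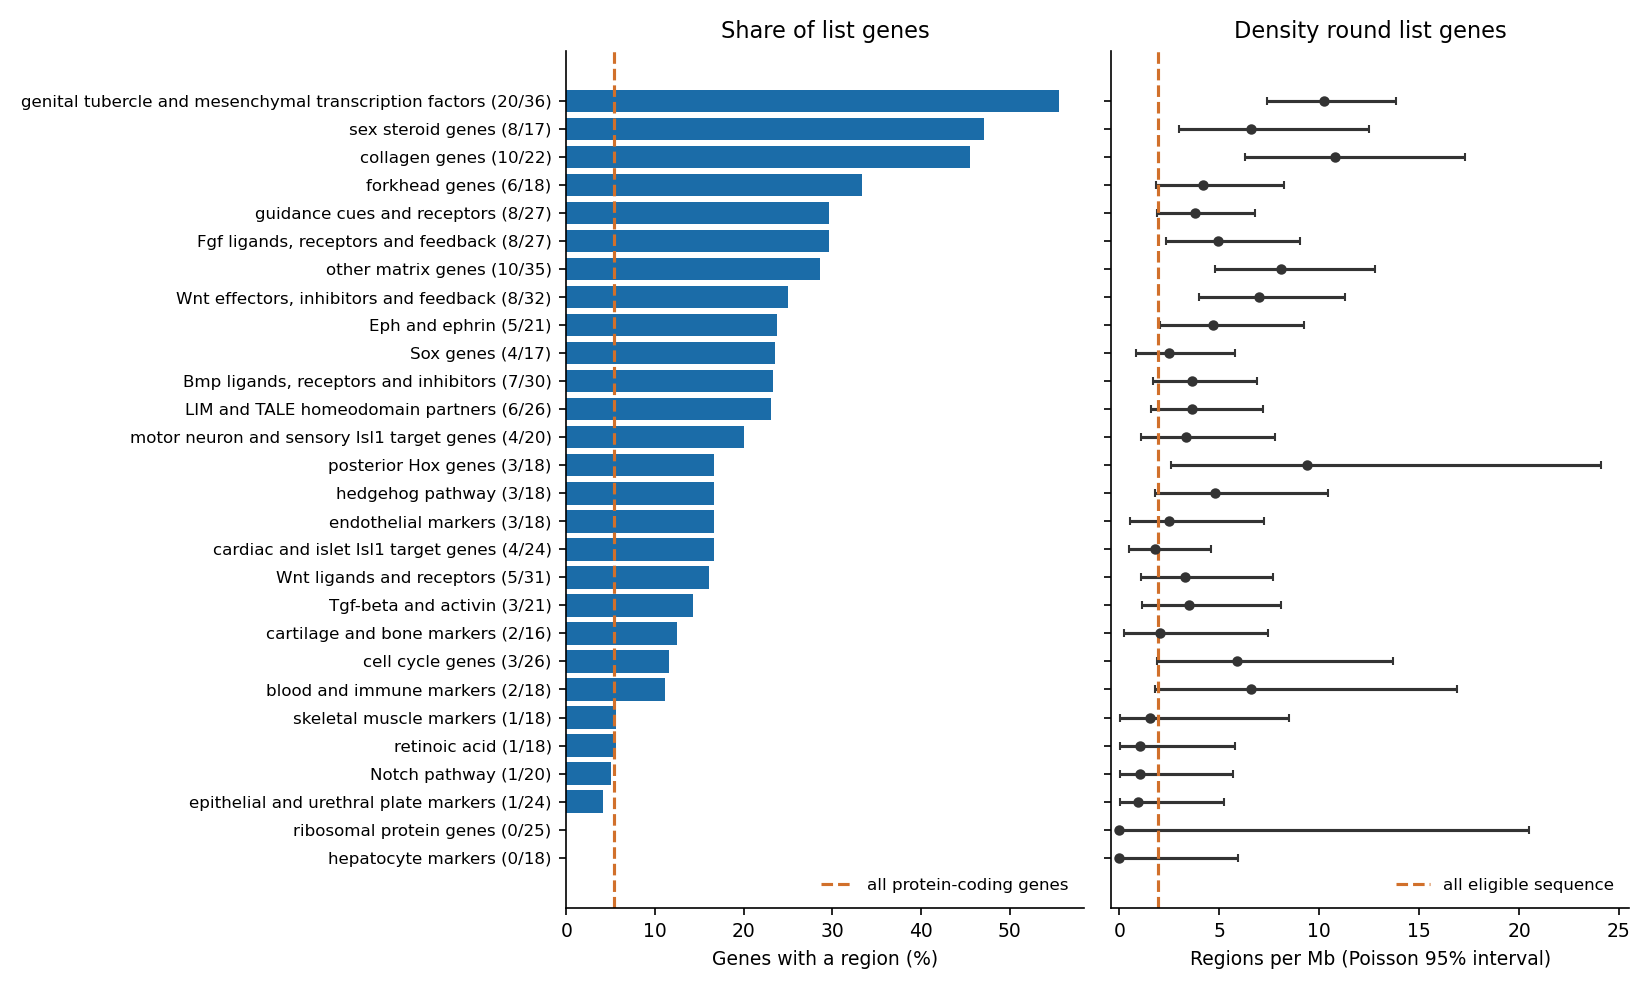
Left, percent of the genes of each of the 28 lists with at least 1 intergenic region (numbers in brackets), with a dashed line at the 5.41% of all protein-coding genes. Right, regions per Mb of eligible flank of each list with Poisson 95% intervals and a dashed line at 1.92 per Mb. Tubercle transcription factors (55.6%, 10.2 per Mb) and collagen genes (45.5%, 10.8 per Mb) are high in both, while ribosomal protein and hepatocyte genes stand at 0.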

How the data were processed

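Chromatin from genital tubercles was immunoprecipitated and sequenced from one end (75 bp), per the protocols in the labels. Trimmomatic 0.35, Bowtie2 2.2.6, MACS2 2.1.0.20150731 and bedtools, with build mm10, are named in the submitters' processing notes; the order of steps, settings, threshold and use of the input were not given in the sources used here. For each ChIP sample the authors deposited a peak list that holds positions and 1 score per peak, a whole number (lowest 20 in both). Reads per library are not in the lists, so depth is unknown, and a site under the threshold is not seen.

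Peaks were joined across lists with Python 3.11.15, numpy 2.4.6 and pandas 2.3.3, and functions were checked on simulated data. Gene spans came from a RefSeq table of GRCm38.p6, which matched all 625 list genes, and strands and start sequences from a RefSeq promoter table of that build. No genome sequence was used. Each region was given to its nearest protein-coding gene end. Eligible sequence is every base that meets the position rule, with assembly gaps not removed. Wilson and Poisson 95% intervals (scipy 1.17.1) cover counting error only, and no p-values were computed. The rule for names took the 12 regions of highest lower score, 3 regions on each side of each limit, 5 groups ordered by number of regions and then by shortest span, the 15 genes with most regions and 2 to 6 genes per list. Members, lists and rules were chosen with earlier results of these data known.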

Additional observations from a re-analysis of the deposited data

How the results depend on the processing

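Of 87 main values under alternatives, all chosen with the design, 53 stayed within the limits set (1.5 times for counts, a 95% interval for other values) and 34 moved. With both scores at 100 or more there were 651 regions (20.9% of the shared regions so filtered), 0.774 per Mb, at 559 genes and 67 list genes, with a median distance of 28.4 kb, 23.3% within 50 kb of another and median scores of 184 and 207. With both at 50 or more, 33.6% had such a neighbour, at 1.55 per Mb and median scores of 116 and 139. With at least 50% reciprocal overlap these were 36.3% and 1.70 per Mb, and the replicate 2 median was 127. Counting genes of every type gave 33.8% of shared regions, a median distance of 20.0 kb, 2.03 per Mb and 1779 nearest genes, with 59 list genes. An inner limit of 5 kb gave 21.04% and 36.0 kb, and an outer limit of 50 kb gave 15.96%, 17.9 kb, 33.7% with a neighbour and 1.76 per Mb. With a single list, the number ran from 2127 to 2501, the density from 2.53 to 2.97 per Mb, the share with a neighbour from 46.0 to 51.7% and the medians were 85 (replicate 1) and 91 (replicate 2). The correlation of the scores stayed between 0.642 and 0.676. Of 280 list counts 67 moved, and of 150 counts at the 15 genes 43 did. No paired analysis was possible because no test was run: replicate numbers are shared only with inputs, whose files were not analysed here. Unknown depth limits how many weak regions both lists could hold.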
